A study of Caenorhabditis elegans with 8 samples.

Results

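The cytochrome P450 genes of Caenorhabditis elegans that carry a cyp symbol were followed in dissected intestines of fasted and fed adults. Members were all rows of the deposited count table whose WormBase identifier had a symbol of the form cyp followed by a CYP family number. The rule took 73 of 20392 genes, in 15 CYP families and 25 subfamilies, and used no measured value. CYP33 was the largest family with 18 members, followed by CYP13 with 13, CYP35 with 10 and CYP34 with 8, while 5 families had a single member. The P450 gene daf-9 lies outside the rule because of its name, and cyp-31A5 was not analysed here.

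The libraries came from wild-type N2 (Bristol) worms, with 4 biological replicates of each condition. For the fasted group, worms on the first day of adulthood were washed, kept in M9 buffer without food for 12 h on a roller and then dissected. For the fed group, worms of the same cultures were washed in M9 buffer and dissected without the fast, although the sample labels give 12 h for both groups. Intestines were pooled for each RNA preparation, poly(A) RNA was amplified by a full-length SMART-Seq method, and the growth text of the labels names L1 larvae and auxin plates where the study's methods name adults and plates seeded with OP50 bacteria. Loss of food, the stay in liquid and the added 12 h of age come together in the fasted group and cannot be told apart.

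Cytochromes P450 are haem enzymes that insert an oxygen atom from molecular oxygen into lipophilic substrates, drawing electrons from NADPH through a P450 reductase, sometimes with the help of cytochrome b5. Their substrates include drugs and plant or bacterial toxins, sterols, and polyunsaturated fatty acids, which they turn into epoxy- and hydroxy-eicosanoids. The intestine of C. elegans is the main site of digestion, fat storage and xenobiotic metabolism, and many genes of the CYP14, CYP33, CYP34 and CYP35 families are known to respond there to foreign compounds. Nuclear hormone receptors and the Mediator subunit MDT-15 control parts of this response.

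The libraries held 25310202 to 33846215 counts in the fasted group and 20964161 to 26372847 counts in the fed group. Levels below are reads per 1000000 counts (RPM) within a gene, or RPM per kilobase of exon (RPKM) where levels of different genes were compared. Intestinal markers were present in every library, with all 14 above 3 counts in some library of each group and sums of 7943 to 8328 RPM in fasted and 11603 to 12598 RPM in fed intestines. Markers of several other tissues were higher in sum in the fasted group: the summed level of the 8 muscle markers lay between 21.8 and 1288 RPM in fasted and between 9.64 and 12.8 RPM in fed libraries, that of the 7 pharynx markers between 68.9 and 415 RPM in fasted and between 17.5 and 24.3 RPM in fed libraries, and that of the 12 germline and oocyte markers between 37.1 and 391 RPM in fasted and between 2.09 and 7.92 RPM in fed libraries. The neuron list lay between 7.59 and 36.0 RPM in fasted and between 3.39 and 5.51 RPM in fed libraries, and the coelomocyte and gonad sheath list between 7.82 and 15.1 RPM in fasted and between 1.38 and 2.13 RPM in fed libraries. The hypodermis and sperm lists overlapped between the groups. Hypodermis markers summed to between 8.77 and 145 RPM in fasted and between 8.09 and 45.8 RPM in fed libraries. Sperm markers summed to between 0.0333 and 0.591 RPM in fasted and between 0.161 and 0.607 RPM in fed libraries. In the fed group, myo-3, tni-1 and unc-27 of the muscle list and glh-2, mex-3 and oma-1 of the germline list had at most 3 counts in every library. The muscle sum was highest in fasted replicates 1 and 4, with 914 and 1288 RPM. Without those libraries, an alternative chosen after the data were seen, 14 cyp members were called higher and 17 lower by the test described below, and 30 of the 36 calls from all libraries were made again. The part of pharynx, germline and the other listed tissues in the results was not tested.

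The cyp genes together took 0.159% ± 0.0154 of all counts in fasted and 0.112% ± 0.0128 in fed intestines (SD, n = 4 each). Their summed level was 1478, 1812, 1570 and 1495 RPM in the fasted libraries, against 1026, 986.5, 1246 and 1202 RPM in the fed libraries. Every fasted library was above every fed library on total counts, but this depended on the scaling. With totals without the vitellogenin genes, fasted replicate 1 (4406 RPM) fell just under fed replicate 3 (4410.3 RPM). Those totals raised the mean sum from 1589 to 4814 RPM in fasted and from 1115 to 4041 RPM in fed intestines, so vitellogenins held most counts. TMM factors take most genes as unchanged, and cannot tell a technical shift of most genes from a real one. With them the sum was 1095 ± 115.3 RPM in fasted and 1615 ± 132 RPM in fed intestines (SD, n = 4 each). The TMM sum was added after the data were seen. The called members, from the test described below, were picked by their direction in these same libraries, so their sums are a description only. The 17 members called higher summed to 1407 RPM in fasted and 179.5 RPM in fed intestines. The 19 members called lower summed to 105 RPM in fasted and 891 RPM in fed intestines. With TMM factors, 6 of the 17 and all 19 kept their calls. In bulk RNA of a whole tissue, fewer cells of a type and less RNA per cell cannot be told apart.

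Per exon length, different members led in the 2 groups. In fasted intestines, cyp-34A9 had the highest mean level with 366 RPKM, ahead of cyp-32B1 with 141 RPKM and cyp-37B1 with 118 RPKM, and these 3 made up 64.9% of the summed RPKM of all cyp genes in fasted and 3.62% in fed intestines. In fed intestines, cyp-35A2 led with 219 RPKM, ahead of cyp-13A12 with 102 RPKM and cyp-33C8 with 67.6 RPKM, and these made up 4.60% of the sum in fasted and 56.2% in fed intestines. The number of members over 1 RPKM was 28 in fasted and 32 in fed intestines. By family, CYP34 summed to 413 ± 35.1 RPKM in fasted and 29.0 ± 9.93 RPKM in fed intestines, and CYP35 to 32.6 ± 6.74 RPKM in fasted and 311 ± 45.1 RPKM in fed intestines (SD, n = 4 each). CYP34 held between 41.4% and 44.7% of the sum in the fasted libraries and between 2.51% and 5.45% in the fed libraries. CYP35 held between 2.83% and 3.74% in the fasted libraries and between 42.4% and 49.2% in the fed libraries. On total counts CYP13 and CYP33, the families with the most members, changed less in sum, with 105 ± 27.5 RPKM in fasted and 148 ± 18.9 RPKM in fed intestines for CYP13, and 96.9 ± 17.97 RPKM in fasted and 111 ± 24.3 RPKM in fed intestines for CYP33. Family sums were not computed with TMM factors, which turned the sum of all members to 1095 RPM in fasted and 1615 RPM in fed intestines. The small change of CYP13 and CYP33 may therefore rest on the scaling.

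**Figure D1:**
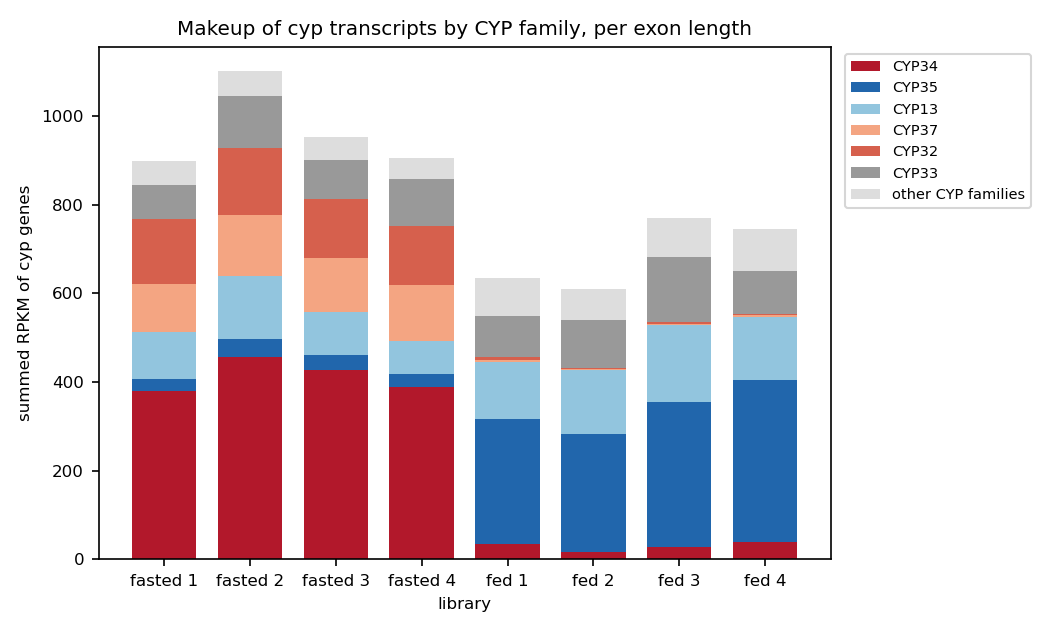
Stacked bars give, for each of the 4 fasted and 4 fed libraries (x axis), the summed RPKM of cyp genes (y axis), coloured by CYP family. CYP34, CYP32 and CYP37 fill most of each fasted bar, where CYP34 alone holds 41.4% to 44.7%, and CYP35 and CYP13 fill most of each fed bar, where CYP35 alone holds 42.4% to 49.2%.

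To ask which members changed beyond the spread between replicates, edgeR's quasi-likelihood test was run on all genes that passed a filter on low counts, with libraries scaled to their total counts. A gene was called at a Benjamini-Hochberg adjusted p (FDR) under 0.01 and a fold change over 1.5. Of the 73 members, 45 passed the filter. Among these, 17 (37.8%) were called higher in fasted intestines, where 52.9% of all 7379 tested genes were, and 19 (42.2%) were called lower, where 9.97% of all tested genes were. The other 9 were not called, 3 of them with an unadjusted p under 0.05. The share of members called lower was therefore about that of higher calls, whereas over all genes higher calls prevailed. Groups did not overlap, with fasted above fed, in 15 tested members (58.5% of all tested genes), and with fasted below fed in 19 (11.1% of all tested genes). Part of this was fixed by the filter. cyp-35B1 passed it through its fasted libraries alone, and cyp-13A7, cyp-14A1 and cyp-14A4 through their fed libraries alone.

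The median log2 fold change of fasted over fed was 0.07 over the 45 tested members and 1.23 over all tested genes. The member median depended on the filter: without it, the median was 0.99 over 71 members. The matching median over all genes without the filter was not computed. The members also spread more widely: their 25th and 75th percentiles lay at −2.88 and 1.54, against 0.28 and 2.11 over all tested genes, and 17 members (37.8%) changed by more than 3 on the log2 scale, against 1048 of all tested genes (14.2%). Of the 17 members called higher, 11 exceeded the median over all tested genes and 6 fell short of it. The scaling matters for these. With TMM factors, which bring the median of all genes down by 1.07 to 0.16, 6 members (13.3%) were called higher, against 19.6% of all genes, and 21 (46.7%) were called lower, against 21.5% of all genes. All 19 members called lower by total counts were also called lower with TMM factors, and all 6 called higher with TMM factors were among the 17.

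**Figure D2:**
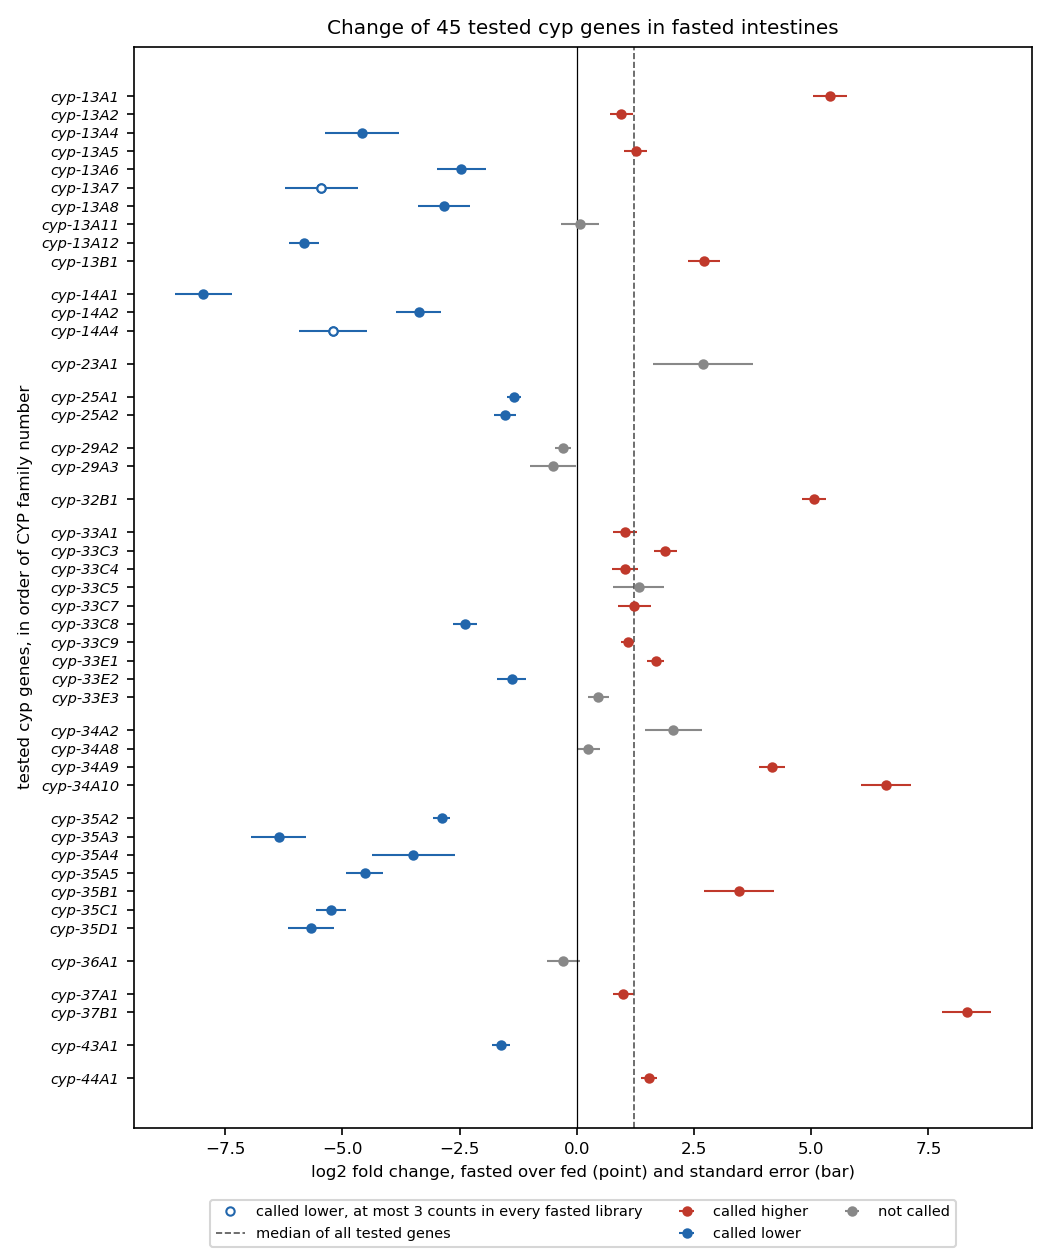
Each point is the log2 fold change of fasted over fed (x axis) of 1 of the 45 tested cyp genes (y axis, in order of CYP family number), and the bar is its standard error. Members called lower reach −7.97 and members called higher reach 8.32, the dashed line at 1.23 is the median of all tested genes, and open points had at most 3 counts in every fasted library.

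Transcripts of CYP35, which led in fed intestines, were largely lost in fasted ones. CYP35 is the family best known for induction by drugs and plant compounds in the C. elegans intestine, and its cyp-35A genes have been linked to intestinal fat. Of its 10 members, 7 were tested, 6 were called lower and 1 was called higher. The most abundant was cyp-35A2, with 36.9, 61.2, 51.1 and 42.04 RPM in the fasted libraries, against 317, 298, 389 and 408 RPM in the fed libraries. Its groups lay far apart, and its log2 change was the smallest of the 6 falls (log2 fold change −2.88, SE 0.186, edgeR FDR 4.36e-07). Its relatives cyp-35A3, cyp-35A5 and cyp-35A4 were almost lost from fasted intestines. cyp-35A3 had 0, 0.356, 0.300 and 0.502 RPM in the fasted libraries, against 15.9, 22.7, 23.6 and 35.1 RPM in the fed libraries (log2 fold change −6.36, SE 0.586, edgeR FDR 4.67e-06). cyp-35A5 had 0.525, 0.435, 0.933 and 0.236 RPM in the fasted libraries, against 11.3, 10.7, 9.25 and 18.05 RPM in the fed libraries (log2 fold change −4.53, SE 0.394, edgeR FDR 3.22e-06). Neither gene overlapped between the groups. cyp-35A4 was lower still in level, with 0.270 ± 0.453 RPM in fasted and 3.22 ± 1.25 RPM in fed intestines (SD, n = 4 each), and its call (log2 fold change −3.49, edgeR FDR 0.00417) was lost when fasted replicate 1 or 3 or fed replicate 2, 3 or 4 was left out, with log2 fold changes of −3.12 to −3.51 and edgeR FDRs of 0.0106 to 0.0196. Without fasted replicate 4, which held most of its fasted counts, the log2 fold change was −5.98.

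The remaining called members of CYP35 were from other subfamilies. cyp-35C1 had 2.86, 3.52, 1.27 and 1.65 RPM in the fasted libraries, against 86.4, 75.2, 86.7 and 103 RPM in the fed libraries (log2 fold change −5.24, SE 0.325, edgeR FDR 3.4e-07). cyp-35D1, the enzyme that hydroxylates the anthelmintic thiabendazole, had 0.0328, 0.395, 0.4996 and 0.177 RPM in the fasted libraries, against 15.6, 15.5, 9.57 and 15.7 RPM in the fed libraries (log2 fold change −5.67, SE 0.497, edgeR FDR 3.38e-06). In both genes the highest fasted library was more than 10-fold under the lowest fed library. cyp-35B1, which lies next to cyp-35A5 and is also known as dod-13, a target of the FOXO factor DAF-16, went the other way at a low level. It had 0.591, 0.395, 0.866 and 1.86 RPM in the fasted libraries, against 0.152, 0.0954, 0 and 0.0758 RPM in the fed libraries (log2 fold change 3.46, SE 0.754, edgeR FDR 0.00177). It passed the filter through its fasted libraries alone, so the lack of overlap between the groups was fixed in advance. With TMM factors the call was lost (log2 fold change 2.41, edgeR FDR 0.0209), and without fasted replicate 4 the log2 fold change was 2.86. Of the 3 untested members, cyp-35A1 had at most 0.379 RPM in any library, cyp-35B2 had counts in 1 fed library alone, and cyp-35B3 had none.

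CYP34 was higher in sum in fasted intestines, and 2 of its 4 tested members were called higher. cyp-34A9, known as dod-16 and another gene regulated by DAF-16, was the most abundant cyp transcript of fasted intestines. It had 567, 638, 653 and 605 RPM in the fasted libraries, against 39.2, 17.3, 31.7 and 49.1 RPM in the fed libraries (log2 fold change 4.16, SE 0.284, edgeR FDR 6.05e-07). cyp-34A10, the next gene on the chromosome, had 21.9, 24.1, 31.5 and 31.9 RPM in the fasted libraries, against 0.228, 0, 0.241 and 0.607 RPM in the fed libraries (log2 fold change 6.59, SE 0.538, edgeR FDR 2.05e-06). Neither overlapped between the groups, and both calls held with TMM factors and in DESeq2. Without fed replicate 4 the log2 fold change of cyp-34A10 was 7.35. The other tested members were not called. cyp-34A2 had 41.6, 94.4, 24.2 and 7.65 RPM in the fasted libraries, against 14.7, 5.58, 10.8 and 9.06 RPM in the fed libraries. Its fasted libraries spread over the fed range, with a coefficient of variation of 89.6% (log2 fold change 2.06, SE 0.611, edgeR FDR 0.0103), and without fasted replicate 4, the lowest of them, the test gave a log2 fold change of 2.41 at an edgeR FDR of 0.000924, and without fasted replicate 2, the highest, 1.28 at 0.0342. cyp-34A8, the gene beside cyp-34A9, had 3.81 ± 0.987 RPM in fasted and 3.21 ± 0.663 RPM in fed intestines (SD, n = 4 each). Its log2 fold change of 0.25 turned to −0.82 with TMM factors. The untested members were cyp-34A1, cyp-34A5, cyp-34A6 and cyp-34A7, and of these cyp-34A6 had counts in all 4 fasted libraries and 0 in all 4 fed libraries, at 0.723, 0.158, 0.333 and 0.620 RPM in fasted intestines, at least 3.73-fold higher than the level of 3 counts per fed library.

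CYP32 and CYP37 each had 1 member that was abundant in fasted and scarce in fed intestines. cyp-32B1 had 232, 241, 209.7 and 214 RPM in the fasted libraries, against 9.22, 4.01, 7.52 and 6.03 RPM in the fed libraries (log2 fold change 5.06, SE 0.251, edgeR FDR 7.92e-08). cyp-37B1 had 169.9, 221, 195 and 199 RPM in the fasted libraries, against 0.910, 0.0954, 0.322 and 1.06 RPM in the fed libraries (log2 fold change 8.32, SE 0.522, edgeR FDR 3.61e-07). This was the largest rise of any member and the 30th highest log2 fold change among the 7379 tested genes. cyp-37A1 was lower in level and changed less, with 8.34, 7.43, 7.23 and 7.53 RPM in the fasted libraries, against 5.54, 3.24, 2.86 and 3.75 RPM in the fed libraries. It was called higher (log2 fold change 0.99, SE 0.224, edgeR FDR 0.0023) but the direction turned with TMM factors (log2 fold change −0.09). Exons of cyp-37A1 overlap those of F01D5.8 on the other strand, which had 52.7 RPM in fasted and 29.1 RPM in fed intestines, and without strand information reads of the pair cannot be told apart. cyp-32A1, the other CYP32 gene, was not tested, with 0.985, 0.0790, 0.333 and 0.355 RPM in the fasted libraries, against 0, 0.0954, 0 and 0 RPM in the fed libraries.

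**Figure D3:**
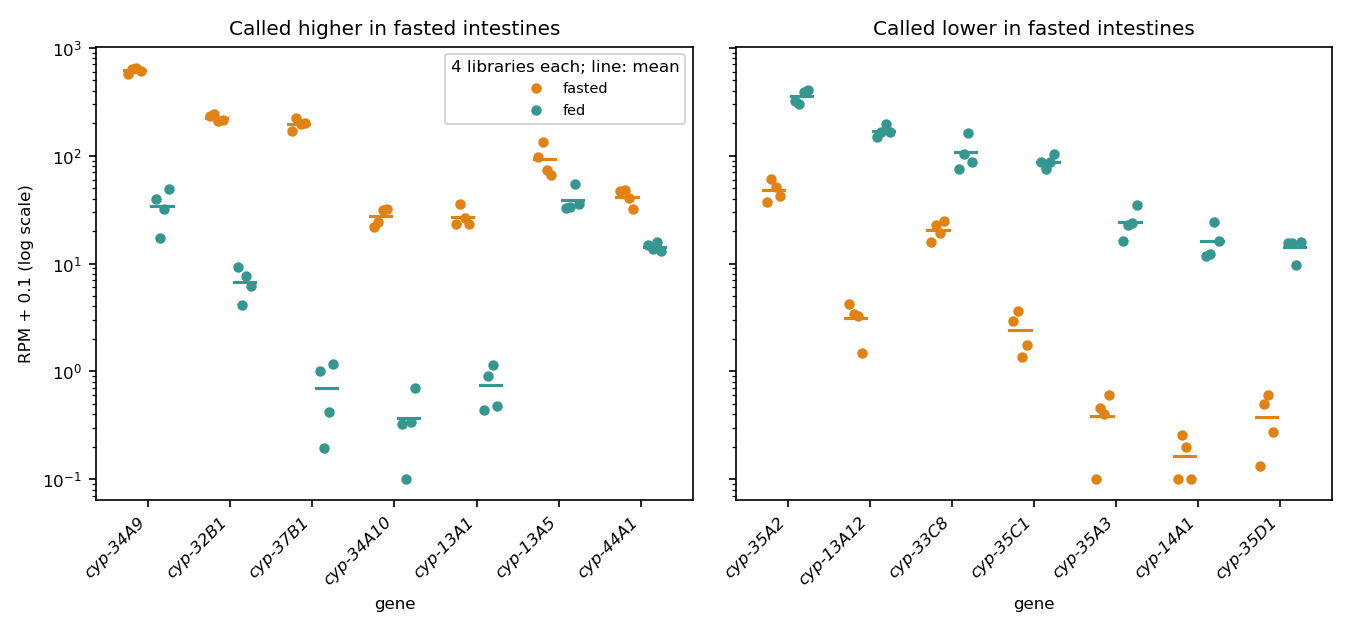
Points give RPM plus 0.1 on a log axis (y axis) in each of the 4 fasted and 4 fed libraries, with a line at the group mean, for 7 members called higher (left panel) and 7 called lower (right panel). No gene shown overlaps between the groups, which for cyp-14A1 was fixed in advance by the filter on low counts. cyp-37B1 is at 169.9 RPM or more in every fasted library and at 1.06 RPM or less in every fed library.

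CYP13 changed in both directions, with 4 of its 10 tested members called higher and 5 called lower. The most abundant in fed intestines was cyp-13A12, which makes eicosanoids downstream of EGL-9 and HIF-1 in the response of worms to reoxygenation. It had 4.14, 3.32, 3.13 and 1.39 RPM in the fasted libraries, against 149, 167, 198 and 167 RPM in the fed libraries (log2 fold change −5.83, SE 0.319, edgeR FDR 1.58e-07). This fall was the 28th largest of all tested genes. cyp-13A4 had 0, 0, 0.699 and 0.236 RPM in the fasted libraries, against 3.41, 6.25, 6.88 and 6.71 RPM in the fed libraries (log2 fold change −4.58, SE 0.785, edgeR FDR 0.000367). cyp-13A6 and cyp-13A8 also fell, at levels under 5 RPM, with log2 fold changes of −2.46 and −2.84 (edgeR FDRs 0.00137 and 0.000826). cyp-13A7, which is inducible by the antibiotic rifampicin, had at most 3 counts in every fasted library and 1.74, 0.572, 2.66 and 1.63 RPM in the fed libraries. It was at least 16.3-fold lower, taking 3 counts per fasted library as the bound (edgeR FDR 0.000106). Without fasted replicate 3 the log2 fold changes of cyp-13A4 and cyp-13A8 were −5.99 and −3.55. No fasted library of these 5 members reached the lowest fed library. For cyp-13A7 this was fixed in advance, since it passed the filter through its fed libraries alone.

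Among the CYP13 members called higher, cyp-13A1 changed the most. It had 23.4, 35.3, 26.3 and 23.02 RPM in the fasted libraries, against 0.341, 0.811, 1.05 and 0.379 RPM in the fed libraries (log2 fold change 5.39, SE 0.362, edgeR FDR 5.44e-07). cyp-13B1 had 5.48, 8.61, 5.60 and 8.45 RPM in the fasted libraries, against 1.44, 0.954, 0.483 and 1.40 RPM in the fed libraries (log2 fold change 2.71, SE 0.339, edgeR FDR 4.22e-05). Both calls held with TMM factors. cyp-13A5 was the most abundant of the 4, with 97.6, 134, 73.1 and 66.4 RPM in the fasted libraries, against 32.4, 33.5, 54.3 and 35.1 RPM in the fed libraries. Its rise (log2 fold change 1.25, SE 0.248, edgeR FDR 0.000947) was close to the median of all genes and was not called with TMM factors (log2 fold change 0.18). cyp-13A2 was called higher by total counts (log2 fold change 0.95, SE 0.254, edgeR FDR 0.00573), but its log2 fold change was −0.13 with TMM factors. Its groups overlapped through fasted replicate 4, at 21.5 RPM, and leaving out any library other than fasted replicate 4 ended the call, with edgeR FDRs of 0.0101 to 0.0227. cyp-13A11 had 0.879 ± 0.393 RPM in fasted and 0.841 ± 0.112 RPM in fed intestines (SD, n = 4 each) and was not called (log2 fold change 0.07, and −1.02 with TMM factors). The untested cyp-13A3, cyp-13A10 and cyp-13B2 had at most 0.857 RPM in any library.

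All 3 tested members of CYP14, which lie together on the X chromosome, were called lower. cyp-14A1 had the largest fall of any member and the 4th largest of all tested genes. It had 0, 4, 3 and 0 counts in the fasted libraries, 0, 0.158, 0.0999 and 0 RPM, against 11.6, 12.2, 24.02 and 16.2 RPM in the fed libraries (log2 fold change −7.97, SE 0.614, edgeR FDR 1.38e-06). Without fasted replicate 2, which held 4 of these counts, its log2 fold change was −8.78. cyp-14A2 had 1.74, 0.553, 0.766 and 2.01 RPM in the fasted libraries, against 12.3, 6.06, 12.6 and 22.3 RPM in the fed libraries (log2 fold change −3.38, SE 0.482, edgeR FDR 0.000105). Its fed libraries varied most among members of at least 5 RPM, with a coefficient of variation of 50.3%, yet all lay above the fasted ones. cyp-14A4 had at most 3 counts in every fasted library and 1.25, 0.668, 1.61 and 0.796 RPM in the fed libraries, at least 10.7-fold lower in fasted intestines (edgeR FDR 9.41e-05). Both cyp-14A1 and cyp-14A4 passed the filter through their fed libraries alone, so the gap between their groups was fixed in advance. cyp-14A3 and cyp-14A5 were not tested and had at most 0.920 RPM in any library.

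The called genes of CYP25 and CYP43 fell by smaller factors. cyp-25A1 had 16.5, 12.6, 15.5 and 15.9 RPM in the fasted libraries, against 38.8, 36.5, 36.7 and 41.4 RPM in the fed libraries (log2 fold change −1.34, SE 0.142, edgeR FDR 1.23e-05). cyp-25A2 had 3.25, 1.82, 3.26 and 3.10 RPM in the fasted libraries, against 10.1, 8.11, 6.80 and 8.34 RPM in the fed libraries (log2 fold change −1.54, SE 0.232, edgeR FDR 0.000152). Both fell on a scale where 79.6% of all tested genes had a log2 fold change above 0. cyp-43A1, the only CYP43 gene, had 7.09, 7.98, 8.43 and 9.25 RPM in the fasted libraries, against 27.99, 17.8, 28.96 and 25.9 RPM in the fed libraries (log2 fold change −1.62, SE 0.188, edgeR FDR 2.47e-05). Its exons overlap C41G11.1 on the other strand, which moved the opposite way at a lower level, with 2.77 RPM in fasted and 0.145 RPM in fed intestines. The untested cyp-25A3, cyp-25A4 and cyp-25A6 had at most 0.525 RPM in any library.

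CYP33, the largest family, was mixed. Of 18 members, 10 were tested, 6 were called higher, 2 were called lower, and with TMM factors none was called higher and 2 were called lower. The abundant cyp-33C8 fell, with 15.8, 22.6, 19.2 and 24.6 RPM in the fasted libraries, against 75.7, 104, 163 and 86.3 RPM in the fed libraries (log2 fold change −2.38, SE 0.252, edgeR FDR 1.23e-05). cyp-33E2, which makes eicosanoids from polyunsaturated fatty acids, had 1.59 ± 0.753 RPM in fasted and 4.19 ± 0.386 RPM in fed intestines (SD, n = 4 each) and was called lower (log2 fold change −1.39, edgeR FDR 0.0019). Its close neighbour by name, cyp-33E1, rose, with 9.62, 9.84, 10.96 and 10.6 RPM in the fasted libraries, against 2.81, 3.10, 2.82 and 4.02 RPM in the fed libraries (log2 fold change 1.68, SE 0.184, edgeR FDR 1.56e-05). cyp-33C3 had 3.97, 5.65, 6.16 and 5.495 RPM in the fasted libraries, against 1.29, 1.14, 1.93 and 1.37 RPM in the fed libraries (log2 fold change 1.89, SE 0.245, edgeR FDR 5.41e-05). Of the called CYP33 members, only these exceeded the median over all tested genes, and neither was called with TMM factors (log2 fold changes 0.61 and 0.83). cyp-33C9 varied least of the members of at least 5 RPM, with 18.2, 20.5, 19.7 and 18.6 RPM in the fasted libraries, against 9.03, 9.21, 8.81 and 9.33 RPM in the fed libraries. Its coefficient of variation was 5.39% in fasted and 2.48% in fed intestines, and its rise (log2 fold change 1.08, SE 0.136, edgeR FDR 4.41e-05) came to 0.01 with TMM factors and to −0.002 in DESeq2.

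The other CYP33 calls leaned on single libraries or on the scaling. cyp-33A1 had 43.8, 97.5, 57.2 and 86.6 RPM in the fasted libraries, against 37.9, 41.9, 30.9 and 29.2 RPM in the fed libraries. The groups did not overlap, yet the call (log2 fold change 1.03, SE 0.246, edgeR FDR 0.00314) was lost without fed replicate 3 or 4 (edgeR FDRs 0.014 and 0.0151), and the direction turned with TMM factors (log2 fold change −0.06). cyp-33C4 had 15.6, 19.8, 15.7 and 14.2 RPM in the fasted libraries, against 7.55, 4.05, 11.1 and 9.21 RPM in the fed libraries (log2 fold change 1.03, SE 0.273, edgeR FDR 0.00561). Its call was lost without fasted replicate 1, 2 or 3 or fed replicate 1 or 4 (edgeR FDRs 0.012 to 0.0209), and its log2 fold change was −0.03 with TMM factors. cyp-33C7 had 2.30 ± 0.705 RPM in fasted and 0.979 ± 0.301 RPM in fed intestines (SD, n = 4 each), and its call (log2 fold change 1.23, edgeR FDR 0.00766) was kept without fasted replicate 4 or fed replicate 3 and lost without any of the other libraries. cyp-33C5 and cyp-33E3 were not called, with log2 fold changes of 1.32 and 0.46, the second of which became −0.61 with TMM factors. The 8 untested members, cyp-33B1, cyp-33C1, cyp-33C2, cyp-33C6, cyp-33C11, cyp-33C12, cyp-33D1 and cyp-33D3, had at most 1.44 RPM in any library. cyp-33C1 had 21 counts in fasted replicate 1, and cyp-33C11 had none in any library.

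The last called member, cyp-44A1, a P450 of the mitochondrial type, had 46.6, 47.5, 40.6 and 31.6 RPM in the fasted libraries, against 14.6, 13.5, 15.9 and 13.01 RPM in the fed libraries (log2 fold change 1.54, SE 0.167, edgeR FDR 1.47e-05). It was not called with TMM factors (log2 fold change 0.47), and it shares exon bases on the same strand with npp-24, which had 7.68 RPM in fasted and 1.69 RPM in fed intestines. The CYP29, CYP36 and CYP23 genes tested were not called by total counts, but cyp-29A2 and cyp-36A1 were called lower with TMM factors (log2 fold changes −1.38 and −1.36, edgeR FDRs 6.04e-05 and 0.00736). cyp-29A2 had 18.4 ± 2.21 RPM in fasted and 22.7 ± 4.12 RPM in fed intestines (SD, n = 4 each; log2 fold change −0.30, SE 0.172, edgeR FDR 0.13). cyp-29A3, which makes eicosanoids, had 0.423 ± 0.237 RPM in fasted and 0.601 ± 0.0824 RPM in fed intestines (SD, n = 4 each; log2 fold change −0.51). cyp-36A1, which acts downstream of HIF-1, had 0.679 ± 0.161 RPM in fasted and 0.826 ± 0.176 RPM in fed intestines (SD, n = 4 each; log2 fold change −0.29), and its exons overlap figo-1 on the other strand, at 6.96 RPM in fasted and 2.83 RPM in fed intestines. cyp-23A1 had 0.690, 0.474, 0.400 and 1.30 RPM in the fasted libraries, against 0, 0.477, 0 and 0 RPM in the fed libraries, and did not pass the threshold (log2 fold change 2.69, SE 1.06, edgeR FDR 0.0382). Without fed replicate 2, the only fed library with counts, it did (edgeR FDR 0.00171).

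In all, 28 members did not pass the filter, and none of them reached a group mean above 0.710 RPM or a count above 38 in any library. Of these, 6 had at most 3 counts in every library, 19 had the higher mean in fasted intestines and 7 in fed intestines. cyp-31A2 and cyp-31A3, which work in making the eggshell and in early polarity of the embryo, were among them. cyp-31A3 had 4, 26, 0 and 2 counts in the fasted libraries, against 0 in all 4 fed libraries, and its highest count was in fasted replicate 2, the library with the highest sum of germline and oocyte markers (391 RPM). The part of germline RNA in this was not tested. cyp-29A4 and cyp-42A1 were at or near 0 in every library.

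Many cyp genes stand in rows on the chromosome, so neighbours could be compared. Positions were those of the later WBcel235 build, since the counts were made on ce10. Chromosome V held 41 of the 73 members, chromosome II 12, chromosome X 7, chromosomes III and IV 6 each and chromosome I 1. Joining members less than 20 kb apart gave 11 groups with 45 members, of which 6 held at least 2 called members. In 4 of these the calls went one way. cyp-14A1, cyp-14A2 and cyp-14A4 fell on chromosome X (13265041 to 13284197), cyp-35A3 and cyp-35A4 fell on chromosome V (4022609 to 4033446), cyp-25A1 and cyp-25A2 fell on chromosome III (3832591 to 3852080), and cyp-33C3, cyp-33C4 and cyp-33C7 were called higher on chromosome V (2236140 to 2252591), where with TMM factors none of these 3 was called and cyp-33C4 turned.

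The other 2 groups held calls in both directions. On chromosome II, 28.4 kb (9779181 to 9807569) held the row of cyp-13A1 to cyp-13A8, in which cyp-13A1, cyp-13A2 and cyp-13A5 were called higher and cyp-13A4, cyp-13A6, cyp-13A7 and cyp-13A8 lower, with cyp-13A2 turning and cyp-13A5 not called with TMM factors. Here cyp-13A4 (log2 fold change −4.58) and cyp-13A5 (log2 fold change 1.25) follow each other in the row. On chromosome V, 36.7 kb (3936326 to 3972991) held cyp-35A5 (log2 fold change −4.53) beside cyp-35B1 (log2 fold change 3.46) at one end and cyp-34A9 and cyp-34A10 (log2 fold changes 4.16 and 6.59) at the other, with cyp-35B2, cyp-35B3, cyp-34A5, cyp-34A6 and cyp-34A7 untested between them, and cyp-35B1 was not called with TMM factors. With those factors cyp-13A1 and its 4 lower neighbours, and cyp-35A5 against cyp-34A9 and cyp-34A10, kept calls in both directions. Members in such rows can be alike in sequence, and reads that fit more than 1 place were not counted, so levels of near-identical copies are uncertain. In all, 22 members share exon bases with a gene on the other strand. The library method kept no strand, although reads were counted in the orientation of the gene. cyp-37B1 is among these members, and its partner F28G4.2 had 0 RPM in both groups. How far reads of such pairs were mixed was not tested.

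**Figure D4:**
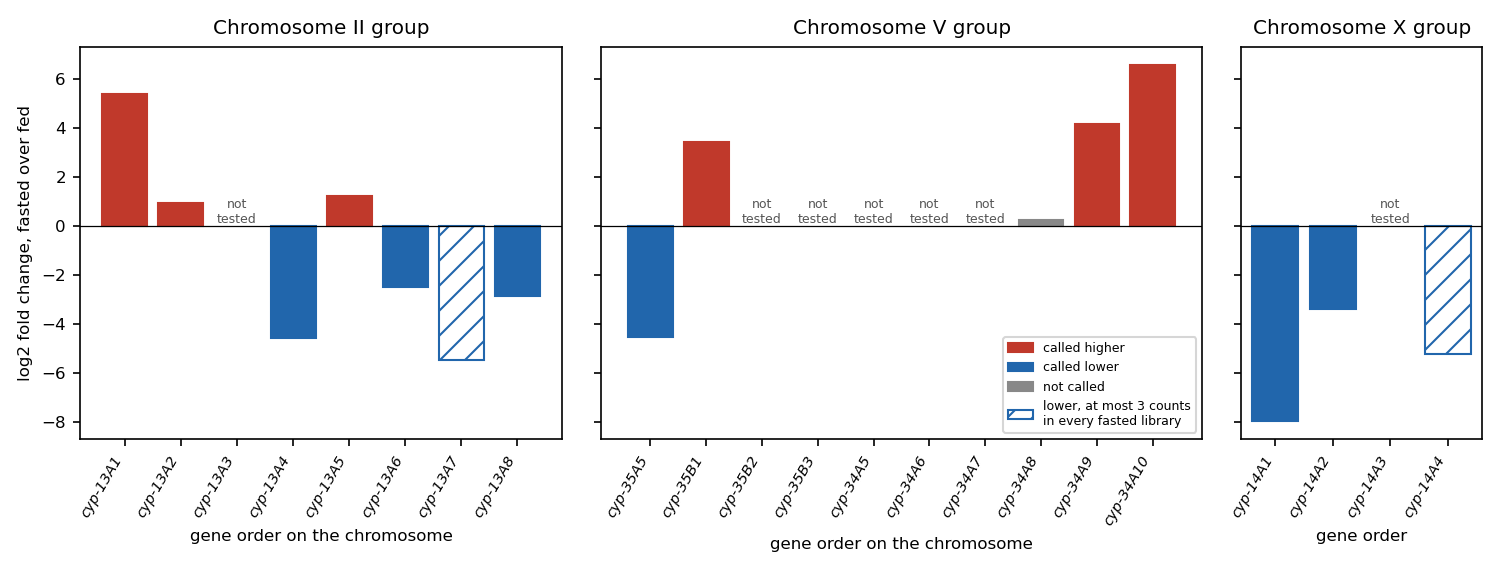
Bars give the log2 fold change of fasted over fed (y axis) for cyp genes in their order along the chromosome (x axis) in 3 groups of neighbours, on chromosomes II, V and X, by total-count scaling. Calls of both directions stand side by side in the first and second groups, with cyp-13A4 at −4.58 beside cyp-13A5 at 1.25 (not called with TMM factors, nor are cyp-35B1 and cyp-13A2, which turned), whereas every tested gene of the X group fell, and hatched bars had at most 3 counts in every fasted library.

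Genes that serve P450 enzymes were read from a list of 8, of which 7 were tested, 1 was called higher, where 52.9% of all tested genes were, and 2 were called lower, where 9.97% were. emb-8, the NADPH-cytochrome P450 reductase on which the microsomal enzymes depend, had 19.4, 19.4, 17.8 and 19.1 RPM in the fasted libraries, against 33.5, 32.1, 38.1 and 32.5 RPM in the fed libraries (log2 fold change −0.85, SE 0.131, edgeR FDR 0.000179). hpo-19, a predicted cytochrome b5 reductase, had 29.1, 25.8, 31.4 and 25.3 RPM in the fasted libraries, against 139, 118, 153 and 136 RPM in the fed libraries (log2 fold change −2.29, SE 0.137, edgeR FDR 2.71e-07). Neither overlapped between the groups. cytb-5.2, a cytochrome b5, went the other way, with 51.1, 22.9, 30.4 and 46.03 RPM in the fasted libraries, against 10.1, 4.05, 3.78 and 7.70 RPM in the fed libraries (log2 fold change 2.55, SE 0.367, edgeR FDR 0.00011). The other cytochrome b5 gene, cytb-5.1, had a log2 fold change of −0.08 (edgeR FDR 0.859), and vem-1, of the membrane-associated progesterone receptor family, had 0.86 (edgeR FDR 0.0109), which became −0.21 with TMM factors and passed the threshold without fasted replicate 2 (edgeR FDR 0.00532). The epoxide hydrolases ceeh-1 and ceeh-2, which open the epoxides that P450 enzymes make, were not called by total counts (log2 fold changes −0.37 and −0.08), and both were called lower with TMM factors (−1.44 and −1.15), giving 1 higher and 4 lower calls on that scale, where 19.6% of all tested genes were called higher and 21.5% lower. daf-9, the P450 of dafachronic acid synthesis, had 0 counts in all 8 libraries.

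Among 12 factors known to control cyp genes or the xenobiotic response, 11 were tested, 8 were called higher, where 52.9% of all tested genes were, and 2 were called lower, where 9.97% were. With TMM factors 2 were called higher and 2 lower, against 19.6% and 21.5% of all tested genes. The Mediator subunit gene mdt-15 had 70.02, 68.2, 71.8 and 71.4 RPM in the fasted libraries, against 21.7, 15.7, 18.8 and 15.1 RPM in the fed libraries (log2 fold change 1.98, SE 0.151, edgeR FDR 1.29e-06). nhr-8, a nuclear receptor of the xenobiotic and sterol response, had 132, 146, 130.1 and 115.5 RPM in the fasted libraries, against 41.2, 33.96, 35.7 and 29.9 RPM in the fed libraries (log2 fold change 1.90, SE 0.141, edgeR FDR 1.14e-06). These alone were also called higher with TMM factors (log2 fold changes 0.91 and 0.82). nhr-49, a nuclear receptor that controls fatty acid metabolism and the fasting response, had 36.9, 37.1, 28.7 and 27.9 RPM in the fasted libraries, against 109, 80.9, 117 and 90.6 RPM in the fed libraries (log2 fold change −1.60, SE 0.167, edgeR FDR 1.13e-05). nhr-86 was also called lower (log2 fold change −0.80, SE 0.213, edgeR FDR 0.00549), and both were also called with TMM factors, but by total counts the nhr-86 call was lost without fasted replicate 1, 2 or 3 or fed replicate 3 or 4 (edgeR FDRs 0.0134 to 0.0188). nhr-176, which the induction of cyp-35D1 by thiabendazole requires, was called higher by total counts (log2 fold change 0.97, SE 0.187, edgeR FDR 0.000797) and not with TMM factors (log2 fold change −0.10), while cyp-35D1 fell on both scales. daf-16, skn-1 (the Nrf homologue), daf-12 and elt-2 (the intestinal GATA factor) were called higher by total counts, with log2 fold changes of 1.67, 1.53, 1.74 and 1.57, and not with TMM factors. The daf-12 call was also lost without fed replicate 1 (edgeR FDR 0.014). hif-1 was called higher by total counts (log2 fold change 0.68) and turned to −0.40 with TMM factors. aha-1, the partner of the aryl hydrocarbon receptor, was not called (log2 fold change 0.36, and −0.71 with TMM factors), and ahr-1, the receptor itself, was not tested, with at most 3 counts in every fed library.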

How the data were processed

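RNA was sequenced from dissected intestines of 4 fasted and 4 fed biological replicates. The authors trimmed the reads, aligned them to ce10 with the spliced aligner of QuasR, and counted uniquely mapped reads in the orientation of the gene over the exons of WormBase WS220 gene models. The deposited values were these raw read counts per gene, with no normalization. Symbols came from a WormBase table, which matched 19182 identifiers and left 1210 without one. Positions and exon overlaps came from an Ensembl annotation of WBcel235, and exon lengths from the deposited count table.

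RPM, RPKM and the tests were computed here. The main test was edgeR 4.0.16 (R 4.3.3), glmQLFit and glmQLFTest, two-sided, group only, total counts as library size, filterByExpr with a minimum count of 10 and total of 15, and Benjamini-Hochberg adjustment over 7379 genes. SE is the absolute log2 fold change over the root of F. The fit was checked on simulated counts with known changes. Those counts held no shift shared by most genes, so the check cannot decide between scalings. Alternatives were TMM factors, totals without the vitellogenin genes vit-1 to vit-6, DESeq2 1.42.0, no filter, a mean of at least 10 counts, a replicate block, and each library left out. Depth sets a floor: 3 counts are 0.0886 to 0.143 RPM, for counting error only.

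The members and gene lists were chosen with earlier results of these data known. Values per library are given for members that were called, did not overlap and reached a mean of 5 RPM in a group, which 27 did. No sequences are shown.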

Additional observations from a re-analysis of the deposited data

Results flagged for a closer look

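In 6 of 128 groups of 4 values, 1 library stood far from the other 3 by Dixon's criterion, which chance meets in about 1 of 20 groups. Fed replicate 3 was the odd one in 3 of them: cyp-13A5 had 54.3 RPM there and 32.4 to 35.1 RPM in the other fed libraries, cyp-13A8 had 4.63 RPM there and 1.86 to 2.09 RPM in the others, and cyp-35D1 had 9.57 RPM there and 15.5 to 15.7 RPM in the others. cyp-23A1 had 0.477 RPM in fed replicate 2 and 0 in the other fed libraries. cyp-25A2 had 1.82 RPM in fasted replicate 2 and 3.10 to 3.26 RPM in the other fasted libraries. cyp-35A4 had 0.945 RPM in fasted replicate 4 and 0 to 0.0999 RPM in the other fasted libraries.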

How the results depend on the processing

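All 19 members called lower were called lower under TMM scaling, totals without vitellogenins and DESeq2, and 18 to 19 members were called lower with 1 library left out. Counts of higher calls moved with the scaling. TMM scaling gave 6 higher cyp members, 4 lower genes of the P450 system list, 2 higher regulators, a median log2 fold change of −1.02 and, added after the data were seen, summed levels of 1095 RPM in fasted and 1615 RPM in fed intestines. DESeq2 gave 9, 5, 3 and −1.03 for the same counts and the median. Totals without vitellogenins gave 12 higher cyp members, a median of −0.19 and summed levels of 4814 RPM in fasted and 4041 RPM in fed intestines. Without a filter the median over 71 members was 0.99 and 1 regulator was called lower. Without fasted replicates 1 and 4, chosen after the data were seen, the median was −0.20 and 1 regulator was called lower. With 1 library left out, 13 to 18 members were called higher, the P450 system list had 1 to 2 higher genes, 1 to 2 regulators were called lower, and the median ran between −0.24 and 0.30.

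The direction of single genes also turned, given here as log2 fold changes. Under TMM scaling these were cyp-13A2 (−0.13), cyp-13A11 (−1.02), cyp-33A1 (−0.0619), cyp-33C4 (−0.0255), cyp-33E3 (−0.61), cyp-34A8 (−0.82), cyp-37A1 (−0.0899), vem-1 (−0.21), nhr-176 (−0.10), aha-1 (−0.71) and hif-1 (−0.40). Under DESeq2 they were cyp-13A2 (−0.13), cyp-13A11 (−1.03), cyp-33A1 (−0.0747), cyp-33C4 (−0.0313), cyp-33C9 (−0.00227), cyp-33E3 (−0.63), cyp-34A8 (−0.83), cyp-37A1 (−0.10), vem-1 (−0.22), nhr-176 (−0.11), aha-1 (−0.72) and hif-1 (−0.41). Totals without vitellogenins turned cyp-13A11 (−0.19) and cyp-34A8 (−0.0102). With 1 library left out, cyp-13A11 lay between −0.22 and 0.28 and cytb-5.1 between −0.39 and 0.25, and without fasted replicates 1 and 4 cyp-13A11 was at −0.56 and ceeh-2 at 0.000658. The cause of these shifts was not tested.

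The main fit had no block, since the study's methods name none. Fed and fasted worms came from the same cultures, so libraries of the same number may be paired. Replicate numbers carried no shared batch in the labels, and deviations of same-numbered libraries correlated at 0.04, 0.08, 0.06 and 0.13. With a replicate block, 15 members were called higher and 19 lower, 1 regulator was called lower, and the median, held by cyp-13A11, was −0.0178. With a replicate block and TMM scaling, 6 members and 2 regulators were called higher, 5 genes of the P450 system list lower, and the median was −1.09. In that blocked fit cyp-13A2 (−0.19), cyp-13A11 (−1.09), cyp-33A1 (−0.10), cyp-33E3 (−0.64), cyp-34A8 (−0.84), cyp-37A1 (−0.0493), vem-1 (−0.22), nhr-176 (−0.11), aha-1 (−0.70) and hif-1 (−0.40) turned. Of the fasted libraries, replicates 3 and 4 correlated best with the fed library of the same number.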
